A study of Schizosaccharomyces pombe with 7 samples.

Results

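Translation elongation factor EF-1 alpha is encoded in the fission yeast Schizosaccharomyces pombe by 3 genes, tef101, tef102 and tef103. They were chosen because an array of the GFP-tagged chromatin remodeller Fft3 read high over all of them, so their Fft3-GFP values are given as a description and carry no test. Each gene was taken as the array probes between fixed positions of the array's own coordinates, with 2 kb on either side. This gave 14 probes in the 3 gene bodies and 36 in the 6 flanks, 50 of the 41551 probes of the array, for 3 of the 5113 annotated protein-coding genes. The arrays of H3K9me2, a histone modification that marks heterochromatin, were not used by the rule of choice. Earlier results of these data were known when the genes were chosen.

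The study hybridised 7 custom tiling arrays of 60-base probes spaced 300 bp apart, each with ChIP DNA in Cy5 against whole-cell extract DNA in Cy3. H3K9me2 was measured on 3 arrays of WT cells (series 1, 2 and 3), 2 arrays of cells whose fft3 gene was deleted, called fft3∆ (series 2 and 3), and 1 array of UV21, a name whose meaning the labels do not give (series 1). All these cultures were grown exponentially in rich YEA medium at 30 °C and fixed with 3% paraformaldehyde. One further array measured Fft3-GFP with a GFP antibody in cells of WT genotype. That culture was kept for 6 h at 18 °C before it was fixed, and it was also cross-linked with 10 mM dimethyl adipimidate, so it differs from the others in temperature and fixation as well as in antibody. None of the 7 arrays was of an untagged strain with the GFP antibody, so signal that does not depend on the tag was not measured. The labels do not say whether series are separate cultures, so p-values measure the spread between these arrays, which may be technical.

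EF-1 alpha binds GTP and carries aminoacyl-tRNA to the ribosome, and it is one of the most abundant proteins of a growing cell. Fft3 belongs to the Fun30 group of Snf2-type remodellers, whose budding yeast and human relatives are Fun30 and SMARCAD1. It is known in fission yeast for the upkeep of heterochromatin, which at the centromeres, telomeres and mating-type region carries H3K9me2. The EF-1 alpha genes lie in none of these regions.

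In the assembly ASM294v3, tef101 (SPCC794.09c) lies at chr3:267955-269516 on the minus strand, tef102 (SPAC23A1.10) at chr1:4095132-4096584 on the plus strand and tef103 (SPBC839.15c) at chr2:626004-627522 on the minus strand. The array's build is not given in the sources used here. Its positions differed from this assembly locally by 110 bp at tef101, 4470 bp at tef102 and -700 bp at tef103. Each gene is annotated as 1 exon with a coding sequence of 1383 bases, and the products are named EF-1 alpha Ef1a-a, Ef1a-b and Ef1a-c.

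The coding sequences are nearly the same, and this bears on the values of probes inside them, because a 60-base probe to 1 gene can bind DNA of the others. None of the 36 flank probes shared 20 bases with another EF-1 alpha gene. Of the 1383 aligned positions, 1358 (98.2%) held the same base in all 3 genes. Identity was 98.8% between tef101 and tef102, 98.6% between tef101 and tef103, and 98.9% between tef102 and tef103. The longest stretch shared by all 3 without a difference was 218 bases, and 572 of the 1324 windows of 60 bases (43.2%) were identical in the 3 genes. A stretch near the start of the coding sequence, coding bases 10 to 69, is shown as an example of a probe-sized window that cannot tell the genes apart (chr3:269411-269470, chr1:4095211-4095270 and chr2:627420-627479, each on its gene's strand).
tef101: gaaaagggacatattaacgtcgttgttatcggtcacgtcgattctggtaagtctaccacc
tef102: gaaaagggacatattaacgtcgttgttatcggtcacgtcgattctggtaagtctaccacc
tef103: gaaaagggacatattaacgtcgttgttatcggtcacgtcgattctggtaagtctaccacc

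The least alike window of that size, coding bases 1291 to 1350 (chr3:268130-268189, chr1:4096492-4096551 and chr2:626139-626198), is shown with capitals at the 7 positions where the 3 genes are not all the same.
tef101: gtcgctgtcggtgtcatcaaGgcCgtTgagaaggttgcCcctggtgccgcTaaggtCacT
tef102: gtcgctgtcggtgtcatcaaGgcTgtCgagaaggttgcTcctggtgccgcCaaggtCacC
tef103: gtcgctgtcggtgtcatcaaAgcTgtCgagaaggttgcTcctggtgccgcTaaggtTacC

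Outside the coding sequence the genes also shared a promoter motif. The HomolD box, CAGTCACA or its reverse complement TGTGACTG, is the element known from fission yeast ribosomal protein genes, where it takes the place of a TATA box. Both strands of the 200 bases before each annotated gene start were searched for its 8 letters. It was found once in each of the 3 genes, beginning 44 bases before the start of tef101, 56 before that of tef102 and 59 before that of tef103. Of all 5112 stretches of that length before annotated genes, 132 (2.58%) held it, and of the 141 genes named as cytosolic ribosomal proteins, 88 (62.4%) did. These 141 were taken by symbol, rpl, rps or rpp followed by a digit, and not by product. They include rpp1, rpp21 and rpp40, which may not be ribosomal proteins. The list is called ribosomal protein genes below. The boxes are shown in capitals with 11 bases on either side, read along each gene's strand (chr3:269542-269571, chr1:4095065-4095094 and chr2:627563-627592). That of tef102 lies inside the annotated 3′ end of the neighbouring gene rbm8. The same stretches were searched for the TATA letters TATAAA or their reverse complement TTTATA. They were found 158 bases before the start of tef102 and not before tef101 or tef103, and 37.0% of all 5112 stretches held them. A match is a match of letters and not a measured binding site.
tef101: cttgtggagagCAGTCACAaatcacttagt
tef102: gccacgccagaTGTGACTGctttccaacga
tef103: aacgaacgttaTGTGACTGctttttttgcg

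Values are log2 of the ChIP over the extract signal minus the array's median over the probes kept, so that 0 is the typical probe and 1 is 2-fold above it. The whole-cell extract of the fft3∆ cells checked the deletion: the median Cy3 signal of the 12 probes in fft3 was 0.298% and 0.379% of the array median in fft3∆ and 54.0% to 82.7% on the other 5 arrays. Relative to local background, the median Cy5 signal was between 22.8 and 100.3 times as bright and the median Cy3 signal between 19.8 and 219.2 times. The WT series 3 array stood apart, with 12.3% of its probes called non-uniform by the scanner software, against at most 4.66% on the others, and with 3.79% saturated probes against 0 on the others. A probe that was non-uniform on any H3K9me2 array was left out of all H3K9me2 tests. This left 33704 of 41551 probes and 4762 genes with at least 2 of them. The EF-1 alpha genes were touched more than most: of their 14 body probes 7 were left out, all of them for WT series 3, and 2 of these were saturated there.

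Fft3-GFP was high along the interval taken as the body of each gene. Averaged over its 4 body probes tef101 stood at 1.10, over 5 probes tef102 stood at 1.08, and over 5 probes tef103 stood at 1.16, which are 2.15, 2.11 and 2.23 times the array's median ratio. The SD over the probes of a gene was 0.02, 0.16 and 0.11, which describes the probes of 1 array and is no replicate error. Of the 4935 genes with at least 2 probes, 10 (0.203%) reached a log2 ratio of 1, and the median gene stood at -0.005. In that order tef103 was the third, tef101 the sixth and tef102 the seventh. The rule selected these genes on this array, and nothing is read from their place. The highest gene of all was SPAC212.06C at 1.35. Others in the order were ubi4 at 1.31, which encodes polyubiquitin, sod1 at 1.16, a superoxide dismutase, and act1 at 1.07, which encodes actin. These genes were named after their values were seen, and the order is not given in full here. With 1 array there is no error for the order.

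By probe, the Fft3-GFP signal over tef101 was flat, at 1.09, 1.14, 1.11 and 1.08 from the 5′ to the 3′ end. Over tef102 it was highest near the start, at 1.26, and was 1.17, 1.04, 1.08 and 0.84 at the next probes toward the 3′ end. Along tef103 it was 0.98 at the start and then 1.15, 1.24, 1.26 and 1.17. Across the 3 bodies 12 of 14 probes reached 1, against 0.859% of all probes of the array, while 0 of the 36 flank probes did. The DNA was sheared to 500 to 1000 bp, which is longer than the 300 bp probe spacing. Neighbouring probes can therefore report the same fragments, and differences between them are not resolved to single probes.

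The signal was lower on average in the flanks than in the bodies, but it did not fall evenly with distance. At the start of tef101 the nearest flank probe, centred 24 bp upstream and overlapping the annotated gene, read 0.37. The nearest one beyond the 3′ end of tef101, in the 3′ part of the converging gene efr3, read 0.92. Beside tef102 the nearest probes read 0.67 upstream and 0.63 downstream. Those of tef103 read 0.54 upstream and 0.73 at its 3′ end, the latter within the annotated gene but outside the interval taken as its body. Farther upstream of tef103 the next probes read 0.45 and 0.43, then 0.12. In the flanks of tef102 the signal rose again, to 0.47 in rpl3401 and 0.57 in rpl1602. The body mean exceeded the mean of the 12 flank probes by 0.80 at tef101, 0.73 at tef102 and 0.90 at tef103. Positions relative to the gene start rest on the placement described with the processing, and 2 ways of placing them differed by 30, 250 and 60 bp at the 3 genes.

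**Figure D1:**
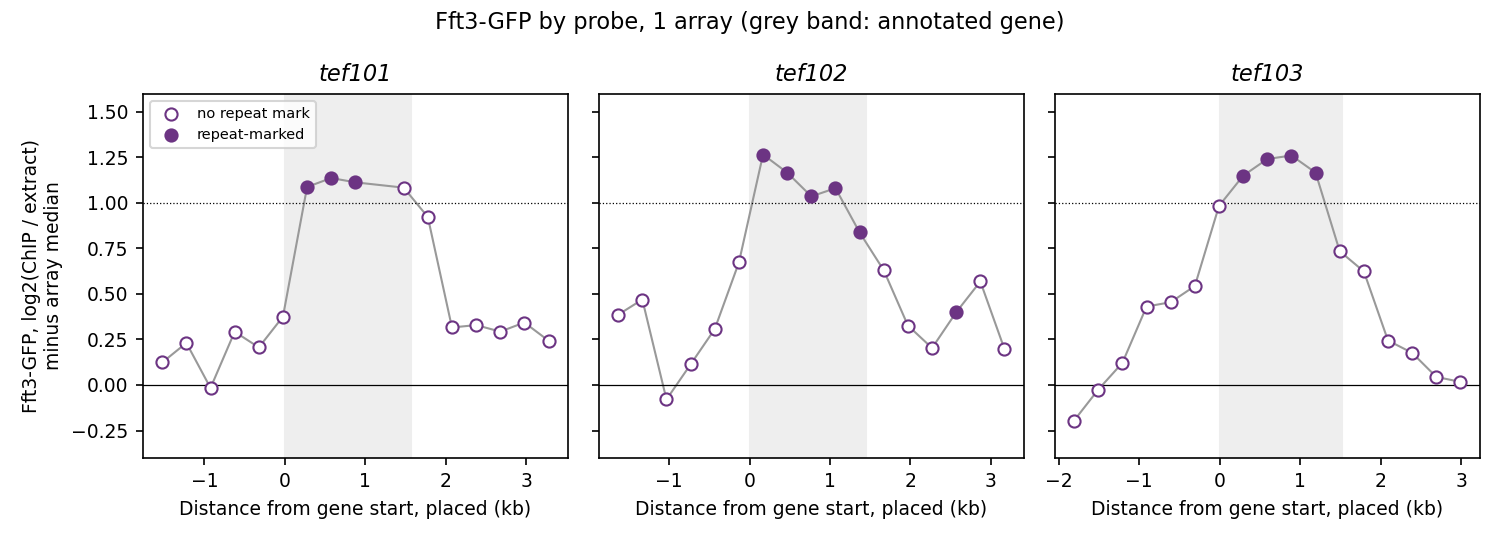
Fft3-GFP by probe on the 1 array, as log2 of ChIP over extract minus the array median, against the placed distance from the annotated gene start in kb. The grey band is the annotated gene, filled points are probes marked on the array as repeated sequence and open points are unmarked probes; body probes lie between 0.84 and 1.26, and no flank probe reaches 1 (dotted line).

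Some probe names on this array end in a letter that went with repeated sequence, and such probes are called marked here. The marked probes held 71.0% and the unmarked ones 1.51% of 20-base words found more than once in the assembly. Of the 14 body probes 12 were marked, namely 3 in tef101, all 5 in tef102 and 4 in tef103. Among all 1173 marked probes of the array, 80 (6.82%) reached 1 on Fft3-GFP. The body probes without a mark lay at the edges and do not share 20 bases with another EF-1 alpha gene: the one at the 3′ end of tef101 read 1.08 and the one at the start of tef103 read 0.98. For tef102 there is no such body probe, and the nearest unmarked probes are the flank probes at 0.67 and 0.63. The coding part of each gene was therefore not measured apart from its paralogues, and how far the 3 bodies share their signal was not tested.

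In the whole-cell extract channel of the Fft3-GFP array, the 12 marked body probes were bright. At 11 of them Cy3 lay 0.84 to 2.04 above the array median on the log2 scale, the exception being the last probe of tef102 at -1.15. The unmarked body probes lay at 0.39 for tef101 and -1.02 for tef103. The Cy5 signal was 74.1 to 826 times its local background over the 14 probes, so none of these ratios rested on a dim spot.

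Beside the other genes of translation, the EF-1 alpha genes stood higher on this array than any listed factor. Of 9 other translation factors 0 reached 2-fold, and their median was 0.51. The gene tif51, for the factor eIF5A, was highest at 0.88. The genes of EF-2, which moves the ribosome along the message, read 0.75 (eft201) and 0.66 (eft202). The elongation factor EF-3 gene tef3 read 0.67. Subunits of EF-1 other than alpha, which belong to the complex that reloads EF-1 alpha with GTP, read 0.51 (tef5) and 0.48 (SPAC29A4.02C). Relatives with other tasks were near the array's median: sup35, the translation release factor eRF3, read -0.06, hbs1, which acts in ribosome rescue, read -0.19, and tuf1, the mitochondrial elongation factor Tu, read -0.002. Since the genes were picked for their Fft3-GFP level, their place above the list is a description.

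The other lists of highly expressed genes were above the array's median as well. Of 122 genes with a value in the ribosomal protein list, 1 (rps27, at 1.06) reached 2-fold, and the median was 0.43. That list, taken by symbol, includes rpp1, rpp21 and rpp40 at -0.14, -0.11 and -0.06. The median was 0.39 for 15 genes of glycolysis and fermentation (highest tpi1, triose phosphate isomerase, 0.71), 0.48 for 10 histone genes (highest htb1, histone H2B, 0.81) and 0.44 for 7 chaperone genes (highest ssa2, an Hsp70, 0.83). Of 6 other housekeeping genes, 1 (act1, at 1.07) reached 2-fold and the median was 0.22. The lists overlap no EF-1 alpha gene and were fixed with earlier results of these data known.

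Genes with the HomolD box had a higher median on Fft3-GFP than genes without it. Of the 132 genes with the box, 120 had a value, with a median of 0.44. Of the 10 genes at 2-fold or more (0.203% of all genes), 5 had the box and 5 did not. Those with it were rps27, psu1 and the 3 EF-1 alpha genes, which were selected for this level. Psu1, a cell wall protein gene, read 1.02. The 76 ribosomal protein genes with the box had a median of 0.44 and the 46 without it a median of 0.36. The 41 remaining genes with the box, EF-1 alpha genes left out, had a median of 0.19 with 1 at 2-fold or more, and the 4815 genes without the box had one of -0.009. These are levels on 1 array, and no test was made of them.

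Turning to H3K9me2, the EF-1 alpha genes were among the genes with the least signal in WT cells. The rule that chose them did not use these arrays, but earlier results of these data were known when they were chosen. The tef101 body read -0.77, -1.04 and -0.58 on WT series 1, 2 and 3, a mean of -0.80 ± 0.23 (SD, n = 3). That of tef103 read -0.74, -1.21 and -0.26, a mean of -0.73 ± 0.47 (SD, n = 3). For tef102 the values were -0.57, -0.64 and 0.08, a mean of -0.38 ± 0.39 (SD, n = 3). All but 1 of these 9 values lay below the array's median, the exception being tef102 on series 3.

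In rank among the 4762 genes, counted from the lowest WT mean, tef101 was the 5th, tef103 the 10th and tef102 the 140th, which is within the lowest 0.105%, 0.21% and 2.94%. On WT series 1 the ranks were 18, 26 and 78 for tef101, tef103 and tef102. On series 2 they were 5, 1 and 53, so tef103 was the lowest gene of that array. On series 3 they were 52, 821 and 3112. These ranks rest on 2, 2 and 3 probes per gene and are descriptions without a test. Of the 2 tef103 probes, the one at the edge was centred 8 bp upstream of the annotated gene start. It read -1.61 on WT series 2, where the tef103 probe inside the gene read -0.81. With non-uniform probes kept the WT means were ranked 22 for tef101, 43 for tef103 and 335 for tef102 of 4933 genes. With such spots and saturated ones left out only on the array concerned, a setting chosen after seeing the data, they were ranked 10, 22 and 117 of 4735.

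**Figure D2:**
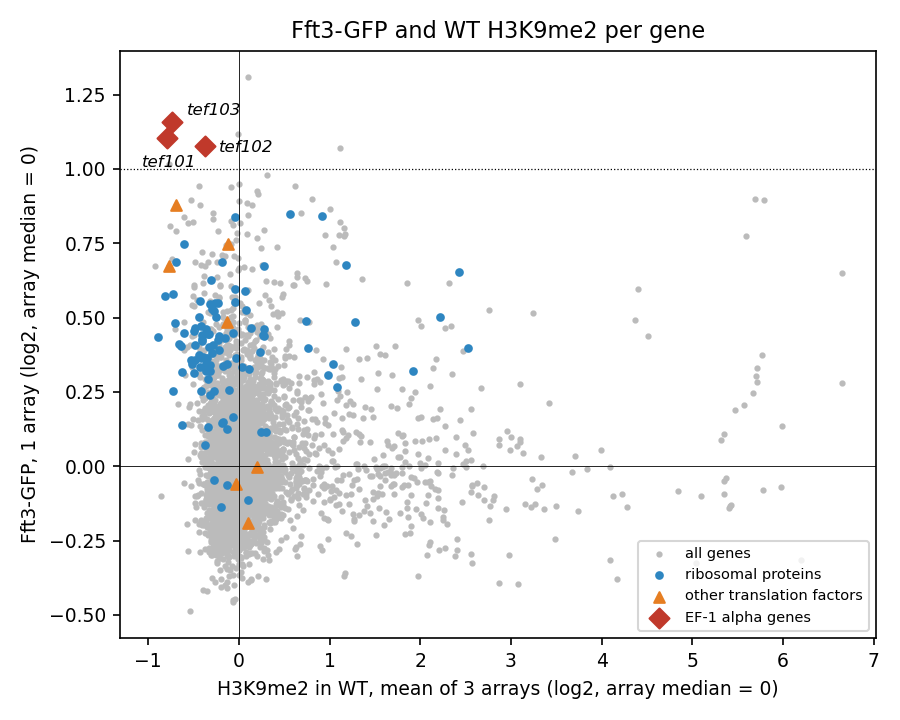
Each point is a gene with at least 2 probes; the horizontal axis is its mean H3K9me2 log2 ratio over the 3 WT arrays and the vertical axis its Fft3-GFP log2 ratio on 1 array, both with the array median at 0. The EF-1 alpha genes (diamonds) lie at the upper left, with H3K9me2 between -0.80 and -0.38 and Fft3-GFP between 1.08 and 1.16, and the dotted line marks a 2-fold Fft3-GFP ratio.

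WT series 3 departed from the other WT arrays over the marked probes of these genes. Over all body probes, left-out ones included, it read -0.22 at tef101, 0.43 at tef102 and 0.09 at tef103, where series 1 and 2 read between -0.91 and -0.61. The highest single values were 1.35, 1.05 and 0.86, at 3 adjoining marked probes of tef102, of which 1 passed the filter. At the unmarked body probes series 3 read -0.80 (tef101) and -0.47 (tef103), near series 1 with -0.57 and -0.54. Series 2 was lower at both, at -1.29 and -1.61. The part of non-uniform or saturated spots in this departure was not tested beyond leaving them out.

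The comparison of fft3∆ with WT asks where H3K9me2 changes when Fft3 is lost, and here whether it does so at the EF-1 alpha genes. It was made with limma over all 4762 genes and the 6 flanks, with Benjamini-Hochberg adjustment. With a threshold of 0.05 on the adjusted p, 289 of all genes (6.07%) were called, of which 287 (6.03%) fell in fft3∆ and 2 (0.042%) rose. The median gene differed by -0.11. None of the EF-1 alpha genes was called: 0 of 3 were lower and 0 of 3 higher, and at an unadjusted p under 0.05 the number was also 0.

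At tef101 the fft3∆ arrays read -0.54 (series 2) and -0.35 (series 3), above all 3 WT arrays. The difference of the group means was 0.35 with an SE of 0.18, and within series it was 0.50 in series 2 and 0.23 in series 3. The adjusted p in limma was 0.370 and the exact 2-sided permutation p was 0.2, the smallest that 3 arrays against 2 can give. Of all genes, 441 (9.26%) had both fft3∆ arrays above all WT arrays, and 1317 (27.7%) had both below.

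The tef102 body read -0.54 and -0.37 in fft3∆, inside the WT range of -0.64 to 0.08. The difference was -0.08 with an SE of 0.24 (limma adjusted p 0.904, exact permutation p = 1), and its sign differed between series 2 (0.10) and series 3 (-0.45). At tef103 the fft3∆ arrays read -0.89 and -0.42, also inside the WT range of -1.21 to -0.26. There the difference was 0.08 with an SE of 0.29 (limma adjusted p 0.920, exact permutation p = 1). Within series it was 0.31 in series 2 and -0.16 in series 3. The direction at tef102 and tef103 thus depended on the series, and at tef101 it did not. In series 2 the fft3∆ and WT arrays were also read with different versions of the scanner software.

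The fft3∆ arrays spread more widely over genes than the WT arrays, which bears on ranks. The lowest 1% of genes lay below -1.18 and -1.25 in fft3∆ and below -0.59 to -0.65 on the WT arrays. On these arrays tef101 was ranked 522 and 1104 from the lowest, tef102 519 and 1059, and tef103 146 and 919. All 3 genes ranked higher on both fft3∆ arrays than on WT series 1 or 2. Against WT series 3, with ranks 52, 3112 and 821, tef101 was again higher on both fft3∆ arrays, tef102 was lower on both, and tef103 was lower on series 2 and higher on series 3. These ranks were not tested.

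**Figure D3:**
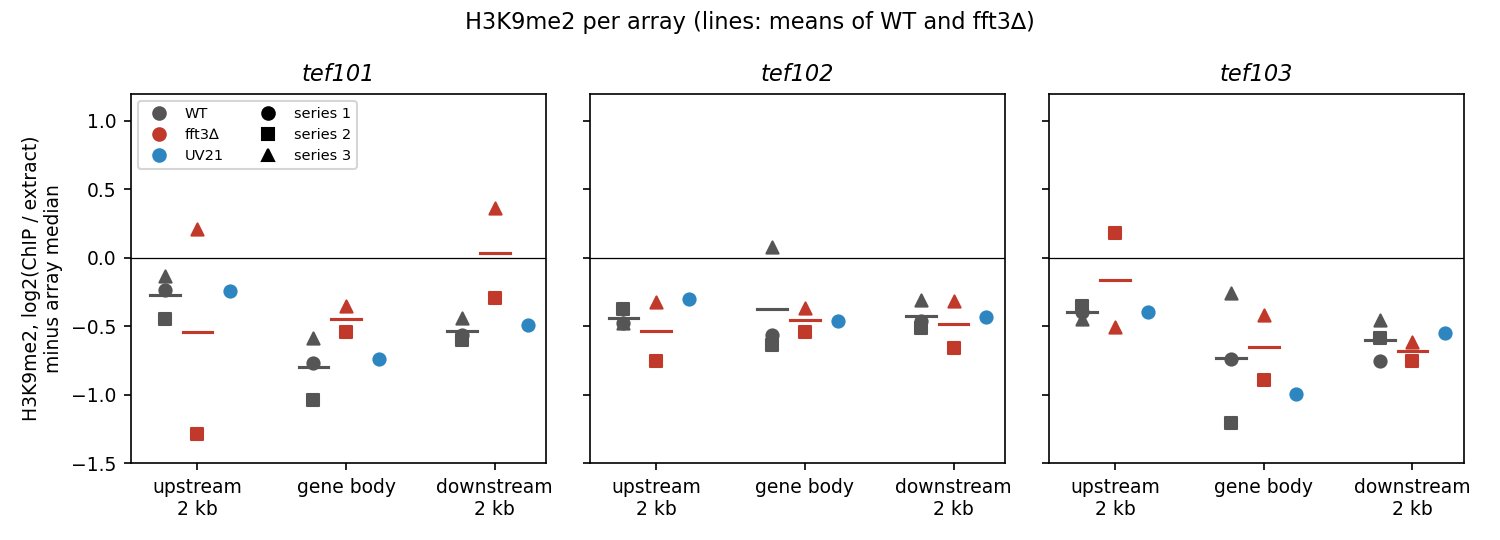
H3K9me2 as the mean log2 ratio of the kept probes minus the array median, for the body and the 2 kb flanks of each gene; grey points are the 3 WT arrays, red points the 2 fft3∆ arrays, blue points UV21, point shapes the series, and lines the means of WT and fft3∆. The fft3∆ points of the tef101 body, -0.54 and -0.35, lie above the WT points, while those of tef102 and tef103 lie among them.

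In the flanks the 2 fft3∆ arrays often disagreed. Downstream of tef101, over 5 kept probes that lie mostly in efr3, the fft3∆ arrays read -0.29 and 0.37 against -0.56, -0.60 and -0.44 in WT. The difference was 0.57 with an SE of 0.22 (limma adjusted p 0.214, exact permutation p = 0.2), and the arrays did not overlap. Over the efr3 gene itself the difference was 0.53, with an adjusted p of 0.169. This flank passed the threshold only when fft3∆ series 2 was left out, with a difference of 0.90 and an adjusted p of 0.0185.

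Upstream of tef101, toward ugp1 (UTP-glucose-1-phosphate uridylyltransferase), fft3∆ series 2 read -1.29 and series 3 read 0.21, below and above all WT values of -0.44 to -0.13. The lowest probes of fft3∆ series 2 were the pair next to the gene start, at -1.98 and -1.96, where the WT arrays read -0.34 to -1.26. The difference of -0.27 (SE 0.40, limma adjusted p 0.786) passed the threshold as -1.02, with an adjusted p of 0.0380, when fft3∆ series 3 was left out, and was 0.48 without series 2.

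The other 4 flanks differed by -0.06 (tef102 downstream), -0.10 (tef102 upstream), -0.09 (tef103 downstream) and 0.23 (tef103 upstream). Their adjusted p in limma was 0.895, 0.830, 0.833 and 0.632. The flanks of tef102 hold some other genes of protein synthesis. Beside tef102 lie rpl3401 and rpl1602, for proteins of the large ribosomal subunit, frs1, for a phenylalanine-tRNA ligase subunit, and rbm8, an RNA-binding protein gene. The differences were -0.07 at rpl1602, 0.29 at frs1 and -0.02 at rbm8 (limma adjusted p 0.892, 0.395 and 0.967). For rpl3401 there were too few probes for a gene value on any array, Fft3-GFP included. Beside tef103 lie efm4, whose product is annotated as a methyltransferase, with -0.57 (adjusted p 0.284), and thf1, for C1-tetrahydrofolate synthase, with 0.16 (adjusted p 0.682).

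Probe by probe, 35 of the 50 probes were tested, 7 of them in gene bodies. By limma 0 were lower and 0 higher at an adjusted p under 0.05, against 737 (2.19%) and 12 (0.0356%) of all 33704 probes, or 2.22% in either direction. The number at an unadjusted p under 0.05 was 3, of which 2 lay downstream of tef101 and 1 upstream of tef103. The lowest adjusted p was 0.180, at a probe in efr3 with a difference of 0.85. Among the body probes the differences ran from -0.41, at the marked tef102 probe with the high WT series 3 value, to 0.54, at the unmarked tef101 probe, and the lowest adjusted p was 0.405.

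**Figure D4:**
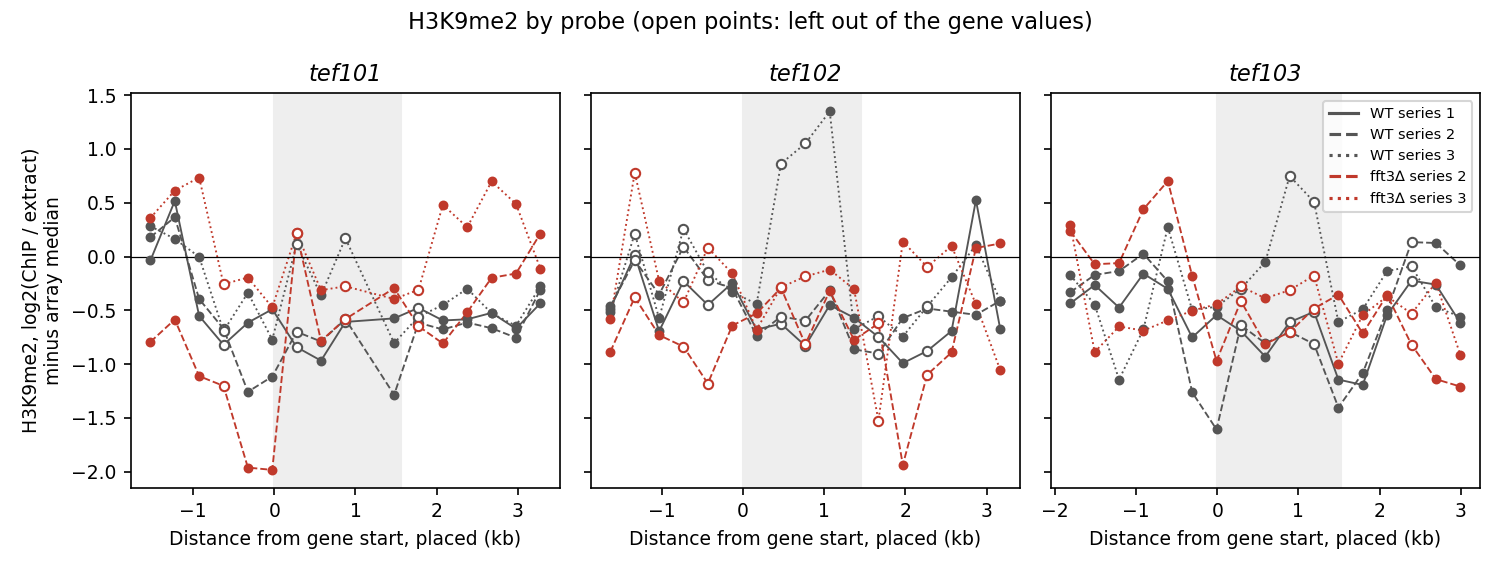
H3K9me2 log2 ratio minus the array median for each probe against the placed distance from the gene start in kb, with WT in grey, fft3∆ in red, and the series by line style; open points are probes left out of the gene values and the grey band is the annotated gene. WT series 3 rises to 1.35 over tef102, and fft3∆ series 2 falls to -1.98 at the start of tef101.

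UV21 was compared with WT in the same fit, with its 1 array assumed to vary like the others. The UV21 array read -0.74 at tef101, -0.46 at tef102 and -0.99 at tef103, ranked 27, 138 and 8 from the lowest of 4762 genes. The differences from WT were 0.06, -0.09 and -0.26, each with an adjusted p of 0.999. Limma called 0 genes and 0 probes (0% of each) for UV21 anywhere on the array, with 185 genes and 950 probes at an unadjusted p under 0.05. Against WT series 1 alone, the array of the same series, the differences were 0.03, 0.10 and -0.26.

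The whole-cell extract signal, the denominator of each ratio, was also compared. The Cy3 difference between fft3∆ and WT was -0.19 at tef101, -0.02 at tef102 and -0.18 at tef103, with adjusted p of 0.920, 0.993 and 0.921. Limma called 0 of 4762 genes (0%) for Cy3, with 91 at an unadjusted p under 0.05. Probes not well above background in Cy3 on all 6 arrays had been left out, so this count cannot show DNA missing from 1 strain: the deleted fft3 gene kept 2 of its 12 probes and had a Cy3 difference of 0.66 (adjusted p 0.920).

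The lists of translation genes and other abundant genes are given beside the 6.03% of all genes that fell in fft3∆. Of 7 testable translation factors 0 fell and 0 rose by limma, also at an unadjusted p under 0.05, and their median difference was -0.31. The ribosomal protein list held 5 of 100 that fell and 0 that rose, with a median of -0.11, the same as over all genes. Before adjustment, 19 ribosomal protein genes were lower and 2 higher with a p under 0.05. Glycolysis and fermentation held 2 of 15 that fell, the enolase gene eno102 and the aldolase gene fba1, with a list median of -0.37 and 3 lower at an unadjusted p under 0.05. Of the other housekeeping genes 1 of 6 fell (2 at an unadjusted p under 0.05), namely act1, from 1.12 in WT to -0.19 (adjusted p 0.0164). Unlike the EF-1 alpha genes, act1 had H3K9me2 signal above the array's median in WT, at or above that of 93.7% of genes. Of 9 histone genes and 6 chaperone genes 0 passed the test in either direction, and at an unadjusted p under 0.05 limma had 1 histone gene and 0 chaperone genes lower.

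The WT level of the EF-1 alpha genes had company among translation genes and in their own flanks. The WT mean was -0.77 at tef3, -0.69 at tif51 and -0.12 at eft201, and -0.13 at SPAC29A4.02C. For sup35, hbs1 and tuf1 it was -0.03, 0.10 and 0.20. The median over 100 ribosomal protein genes was -0.28, against -0.01 over all genes. Upstream and downstream, the flanks had WT means of -0.27 and -0.53 at tef101, -0.44 and -0.43 at tef102, and -0.40 and -0.60 at tef103. Both flanks of tef102 were thus lower than its body at -0.38. Among the genes in the flanks, the WT mean was -0.51 at efr3, -0.42 at rbm8, -0.32 at thf1 and -0.31 at efm4. It was -0.22 at rpl1602, -0.18 at frs1 and -0.11 at ugp1.

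Genes whose values over all 7 arrays were closest to each EF-1 alpha gene were found by the root mean square difference in log2 ratio, over 4762 genes. For tef101 they were dbp2 (an RNA helicase, 0.178), cpc2 (the ribosome-associated RACK1, 0.198), psu1 (0.206), tef103 (0.217) and rpl1802 (0.228). The closest to tef103 was tef101 (0.217), then rpl31 (0.282), dbp2 (0.296), cpc2 (0.299) and met26 (methionine synthase, 0.304). For tef102 they were sfp1 (0.104), ubc4 (a ubiquitin-conjugating enzyme, 0.168), bip1 (an Hsp70 of the endoplasmic reticulum, 0.189), sam1 (S-adenosylmethionine synthetase, 0.198) and tbp1 (the TATA-binding protein, 0.202). By this measure tef102 was the 13th closest to tef101 and the 11th closest to tef103. In the list of tef102 itself, tef101 was at place 33 and tef103 at place 64, with differences of 0.320 and 0.355. Unlike probes enter here. The H3K9me2 values of tef102 came from marked probes only, among them the probe at 1.35 on WT series 3. Those of tef101 and tef103 each included an unmarked probe. The part of this in the distances was not tested. The measure includes the Fft3-GFP array that chose the genes and is given without a test.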

How the data were processed

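The 7 arrays are Agilent 2-colour scans read with Feature Extraction, per the file headers. The version was 10.7.3.1 for fft3∆ series 2, 11.5.1.1 for both arrays of series 3 and 12.0.3.1 for the others. Within series 2, strain and software version therefore cannot be told apart. The processed red and green signals are, per the file headers, spot intensity after background subtraction and linear dye normalization by the scanner software. Protocol 1105 was used for series 3 and 1200 for the others. The software's own ratio column is log10 of red over green, per the file headers. The deposited value table holds the linear ratio of the same signals, neither logged nor centred (median 0.932 to 0.991; correlation 1 with the scanner ratio on every array).

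From these, log2 of processed Cy5 over Cy3 minus the array's median was computed, without loess or quantile steps. Control spots, probes non-uniform on any H3K9me2 array and probes not well above background in Cy3 on all 6 were left out (33704 of 41551 kept; 41549 for Fft3-GFP, by its own array). Gene values are means of at least 2 probes. Limma 3.58.1 (R 4.3.3; lmFit, then eBayes, with strain group alone in the design) was fitted to all 6 H3K9me2 arrays with Benjamini-Hochberg adjustment over all features. The number of arrays limits the precision. The fit was tested on simulated data first.

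Probe sequences were not used here. Array positions were placed on ASM294v3 by correlating reference GC content with Cy3 in 100 kb blocks, and near each EF-1 alpha gene by the repeat marks. The groups share series numbers. Deviations from group means correlated at -0.0341 (series 2) and -0.0575 (series 3), and no pairing was taken in the main fit. The 2 fft3∆ arrays deviate from their mean by equal and opposite amounts, so pairs of unlike series gave 0.0341 and 0.0575. The 2 correlations are therefore not separate checks.

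Alternatives were normexp background correction (offset 50, on median signals, since mean signals were not used here), the software's ratio, the deposited ratio, other probe filters, quantile normalization, medians of probes, other probe sets, each array left out, the series or the extraction protocol as a block, and fewer arrays in the fit. Genes named beyond the 3 are those in their flanks, the translation factors, the closest 5 by root mean square difference, the highest of each list and fft3; others are said to have been chosen after their values were seen. The members and lists were chosen with earlier results of these data known.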

Additional observations from a re-analysis of the deposited data

How the results depend on the processing

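None of the EF-1 alpha bodies passed the threshold for fft3∆ minus WT under any alternative, with adjusted p between 0.192 and 0.999. The tef101 difference stayed positive throughout, between 0.23 and 0.66. For tef102 it was positive with probe medians (0.17), normexp (0.20) and quantile normalization (0.22), and between -0.21 and 0.15 with 1 array left out. For tef103 it was -0.022 with the extraction protocol as a block and -0.16 to 0.32 with 1 array left out. The UV21 difference at tef101 was -0.18 with non-uniform features kept, -0.088 with non-uniform and saturated spots left out on their own array (added after seeing the data), and -0.064 to 0.16 with 1 array left out. At tef102 it was 0.067 with the protocol as a block, 0.055 with probe medians and -0.22 to 0.14 with 1 array left out. The Cy3 difference, with 1 array left out, ran from -0.42 to 0.041 at tef101, -0.31 to 0.27 at tef102 and -0.44 to 0.079 at tef103.

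In the flanks, tef101 upstream was 0.0094 with normexp, 0.023 with quantile normalization and -1.02 to 0.48 with 1 array left out. The tef102 downstream flank was 0.22 with probe medians, 0.081 with normexp, 0.21 with quantile normalization and -0.23 to 0.11 with 1 array left out. Its upstream flank was 0.14 with quantile normalization and -0.31 to 0.12 with 1 array left out. The tef103 downstream flank was 0.24 with quantile normalization, and its upstream flank -0.11 to 0.57 with 1 array left out. The cause of these changes was not tested.

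With the series number as a replicate block, which the numbers are not shown to warrant, tef102 for UV21 was 0.10, 295 probes were lower and 0 higher, and no EF-1 alpha result changed its call. Genes lower in fft3∆ numbered 189 with the protocol block and 26 with quantile normalization. Genes higher numbered 1 with probe medians, 4 with non-uniform features kept, 8 with normexp and 0 with quantile normalization. With 1 array left out genes lower ran from 30 to 638, genes higher from 0 to 87, probes lower from 0 to 3185 and probes higher from 0 to 555; a lone fft3∆ array is assumed to vary like the others. With normexp 40 genes reached 2-fold Fft3-GFP, and tef101 stood at 1.19. Using only probes that share no 20 bases with a paralogue, tef103 stood at 0.98 on 1 probe, and tef102 has no such probe, so no value could be given. With only probes placed wholly inside the gene, tef103 had too few kept probes for an H3K9me2 value. WT H3K9me2 stayed negative at all 3 genes under every alternative that gave a value. It was -1.10 to -0.61, -0.77 to -0.24 and -1.10 to -0.50 for tef101, tef102 and tef103. Small bodies of 2 or 3 kept probes and 3 against 2 arrays limit what could be detected.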
